A study of Drosophila melanogaster with 21 samples.

Results

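The genes described here are 10 Drosophila genes for heterogeneous nuclear ribonucleoproteins (hnRNPs) and related splicing regulators: Hrb27C, Hrb87F, Hrb98DE, sqd, ps, mub, bl, heph, glo and Syp. They were chosen by symbol. All 10 were found among the 13989 genes of the files, and all 10 passed the filter on low counts that left 8750 genes for testing. The gene bl is listed in the annotation as HnRNP-K, and its transcripts are called bl-RA, bl-RC and so on below. By the BDGP6 annotation, 7 of the genes lie on chromosome 3R: Hrb87F (FBgn0004237) from 13656846 to 13660531, Hrb98DE (FBgn0001215) from 28599834 to 28605777, sqd (FBgn0263396) from 13634862 to 13646304, ps (FBgn0261552) from 9417940 to 9455500, heph (FBgn0011224) from 31846987 to 32015520, glo (FBgn0259139) from 11815206 to 11819420 and Syp (FBgn0038826) from 20756729 to 20810726. The others are Hrb27C (FBgn0004838) on 2L from 6920704 to 6932057, bl (FBgn0267791) on 2R from 20587551 to 20606854 and mub (FBgn0262737) on 3L from 21844788 to 21932702.

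RNA was sequenced from 21 libraries of S2 cells, an embryonic fly line with blood cell features. A copper-inducible gene had been integrated into the cells, hygromycin had selected for the integration, and every group, the GFP control included, received 500 µM copper sulfate for 53 h. The GFP group carried GFP and no LS2, and the WT group carried wild-type LS2. The d38 group carried LS2 with W62A, D63A and I64A, and the RRM2 group carried F285D and F287D. Beta5 carried K192E and R194E, SF1 carried E370K and D371K, and in GSlinker the residues from H197 to P233 were replaced by GGS motifs. Each of the 7 groups had 3 libraries. The labels describe 1 line per construct, so a difference between lines and an effect of the construct cannot be told apart, and p-values measure the spread between libraries, which may be technical. The design asks how these changes alter the splicing regulation by LS2, a relative of the large U2AF subunit.

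U2AF binds the pyrimidine-rich stretch and the AG at the 3′ end of introns and recruits the spliceosome there. Proteins of the hnRNP class coat nascent transcripts and help or block the use of nearby splice sites, so that their balance with U2AF sets which exons are joined. Many of their own genes make several transcripts through alternative first exons, splice sites and 3′ ends, and several of these proteins also act on mRNA translation or localisation in the cytoplasm. Hrb27C, Hrb87F, Hrb98DE and sqd are of the hnRNP A/B kind. The KH-domain proteins are ps (pasilla, related to mammalian Nova), mub (related to the poly(C)-binding proteins) and bl (bancal, the fly hnRNP K). The others are heph (the fly polypyrimidine tract-binding protein), glo (glorund, of the hnRNP F/H kind) and Syp (Syncrip, the fly hnRNP Q).

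Library totals ran from 17667236 to 38553848 estimated counts. The level of LS2 was 1.46 to 3.97 TPM (an abundance corrected for length and scaled to a fixed total per library) in GFP and at least 5175 TPM in each library of the 6 LS2 groups, with an exact two-sided permutation p of 0.1 for each group against GFP, the smallest that 3 libraries against 3 can give. The deposited effective lengths fell into 2 sets of libraries. The SD of annotated minus effective length was 68.4 to 88.6 nt in GFP, WT, d38 and RRM2, and 277.8 to 378.7 nt in Beta5, GSlinker and SF1. Each group lay in 1 set, so the set and the construct cannot be told apart in any comparison of Beta5, GSlinker or SF1 with GFP or WT. SF1 replicate 1 stood apart from the other SF1 libraries in the levels below. Of 12 blood cell genes, 11 were at 1 TPM or more in every library, while NimC1 was at 0.0205 to 0.192 TPM. Their summed level differed between groups: 893 to 1068 TPM for WT, 1070 to 1153 for d38, 1220 to 1281 for Beta5, 1320 to 1432 for SF1, 1340 to 1507 for RRM2, 1496 to 1740 for GSlinker and 1871 to 1972 for GFP. Of 5 neuron genes, elav alone was at 1 TPM or more in every library, and their sum was 2.66 to 2.89 TPM in GFP and up to 8.73 TPM in SF1. Of 5 germ line genes 3 were matched (aub, osk and bam), and their sum was 35.2 to 39.3 TPM in GFP, 93.8 to 98.0 TPM in SF1 and 56.8 to 70.8 TPM in the other LS2 groups, so every LS2 library lay above every GFP library. The part of these 3 lists in the results below was not tested. The 4 muscle genes summed to at most 1.21 TPM and the 4 fat body genes to at most 0.212 TPM.

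Per length, sqd and Hrb27C were the most abundant of the 10 genes in every group, and heph was the least abundant. In GFP, sqd was at 396 ± 25.7 TPM (SD, n = 3) and Hrb27C at 377 ± 22.0 TPM, and the ranges of the pair overlapped in all 7 groups. Hrb87F followed at 227 ± 10.7 TPM, Hrb98DE at 198 ± 8.86, glo at 127 ± 0.277, bl at 87.4 ± 1.70 and ps at 81.7 ± 8.11. The lowest levels in GFP were 33.4 ± 3.10 TPM for Syp, 20.5 ± 1.99 for mub and 7.86 ± 0.545 for heph. In WT, d38, Beta5, GSlinker and SF1, Hrb98DE ranked above Hrb87F, with overlapping ranges in Beta5 and SF1. The ranges of bl and ps overlapped in GFP, d38, Beta5, GSlinker and SF1. Estimated counts per library were 34695 to 70308 for Hrb27C and 39274 to 73754 for sqd, against 1904 to 3279 for mub and 633 to 1647 for heph. Low depth limits the shares of heph transcripts given below. Depth alone does not rank the precision of the shares: Hrb87F-RC and mub-RE, of deeper genes, had larger SEs in log2 odds than heph-RE.

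**Figure D1:**
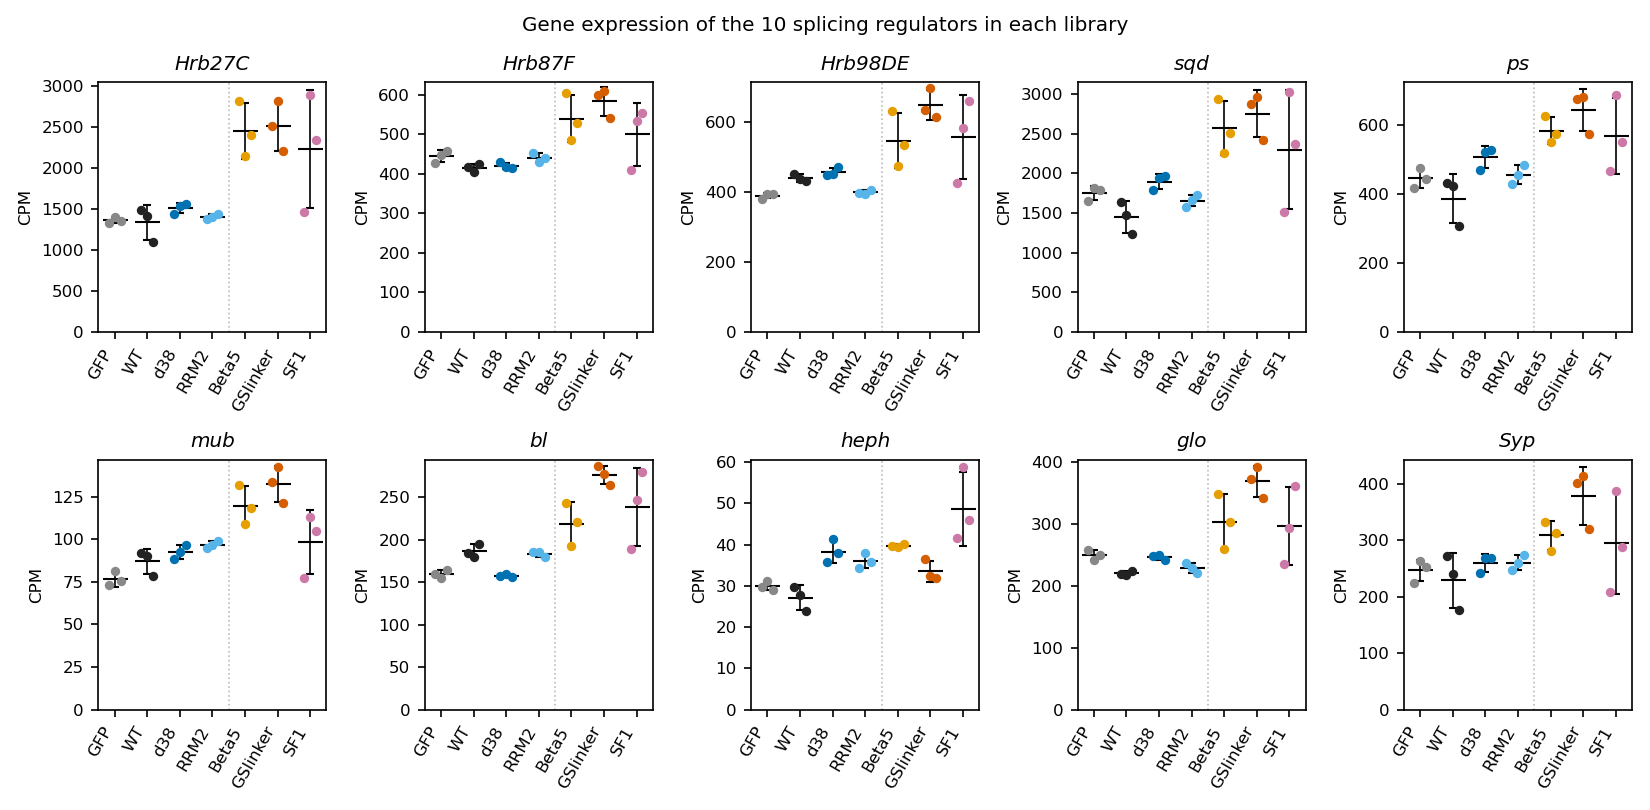
Expression of each gene in CPM (counts on a fixed library total, y axis) by group (x axis): each dot is a library, the bar and whiskers are the mean and SD of 3, and the dotted line separates the 2 sets of libraries by effective length. Beta5 and GSlinker lie above GFP for most genes, and SF1 replicate 1, the leftmost SF1 dot, is at 1461 CPM for Hrb27C against 2880 and 2343 in replicates 2 and 3.

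In the fit of all 21 libraries, none of the 10 genes was called between WT and GFP by edgeR's quasi-likelihood test, against 34.2% of all genes tested in either direction, and DESeq2 also called 0. At an unadjusted p under 0.05 there was 1, bl, at 160, 155 and 164 CPM (counts scaled to a fixed library total) in GFP and 184, 180 and 195 CPM in WT. The ranges of bl did not overlap, and its log2 fold change was 0.23 ± 0.10 (SE, adjusted p = 0.0807). A fit of the first set's 12 libraries alone called 5 of the 10 genes, against 45.3% of all genes in that fit, with Hrb98DE, mub and bl higher in WT and sqd and glo lower. These are bulk samples, in which fewer cells with a transcript and less of it per cell cannot be told apart. In sqd, WT replicate 3 was the lowest of its group at 1234 CPM, against 1642 and 1478 in the others and 1649 to 1810 in GFP.

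In d38, heph was the 1 gene called against GFP, higher by 0.36 ± 0.10 on the log2 scale (adjusted p = 0.0104), where 15.1% of all genes were called higher. Its CPM were 35.7, 41.3 and 37.9 in d38, against 29.6, 31.0 and 29.0 in GFP and 29.7, 27.8 and 23.8 in WT. Every d38 library lay above every GFP and WT library. Without d38 replicate 2 the call against GFP was lost (adjusted p = 0.0624). Against WT, heph was higher in d38 by 0.50 ± 0.10 (adjusted p = 0.00166), a call that no left-out replicate ended. The splicing repressor heph binds the same kind of pyrimidine-rich sequence as U2AF.

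The other gene called in d38 against WT was ps, higher by 0.39 ± 0.12 (adjusted p = 0.0367), which makes 2 of 10 where 7.67% of all genes were called higher. The level of ps was 469, 521 and 526 CPM in d38 and 430, 422 and 306 CPM in WT. Without WT replicate 3, d38 replicate 2 or d38 replicate 3 the call of ps was lost (adjusted p up to 0.219).

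RRM2 was also higher in heph than WT, by 0.41 ± 0.10 (adjusted p = 0.0130), the 1 call of 10 genes where 4.08% of all genes were called higher. Its libraries were at 34.3, 38 and 35.8 CPM, above all of WT and of GFP. Without WT replicate 3 or RRM2 replicate 2 the call was lost (adjusted p up to 0.0866). Against GFP the 1 call was mub, higher by 0.34 ± 0.10 (adjusted p = 0.0213), where 12.3% of all genes were called higher. The level of mub was 95.0, 96.7 and 99.4 CPM in RRM2 and 72.9, 81.3 and 75.3 CPM in GFP. That call was lost without GFP replicate 1 or 3 or RRM2 replicate 2 or 3 (adjusted p up to 0.0821), and with the replicate number as a block heph was called as well, which made 2.

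Between d38 and RRM2 none of the 10 genes was called by edgeR, against 13.6% of all genes in either direction. DESeq2 called 0, and 1 gene, bl, had an unadjusted p under 0.05. In bl the 3 d38 libraries (157, 160 and 156 CPM) lay below the 3 RRM2 libraries (185, 185 and 179 CPM). The fit of the 12 libraries called 2 of the 10 here, against 22.9% of all genes.

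In Beta5, GSlinker and SF1, most of the 10 genes were higher than in both GFP and WT, in comparisons that cross the sets of libraries. Against GFP, 9 were called higher in Beta5 (28% of all genes), 9 in GSlinker (31.1% of all genes) and 7 in SF1 (28.4% of all genes). Against WT, 9 were called higher in Beta5 (24.9% of all genes), 10 in GSlinker (27.4% of all genes) and 8 in SF1 (23.6% of all genes). Comparisons with GFP share the GFP libraries and those with WT share the WT libraries, so they are not separate observations. The median log2 fold change of the 10 genes was 0.43 in Beta5, 0.64 in GSlinker and 0.38 in SF1 against GFP, beside medians over all genes of -0.01, -0.01 and 0.00. On log2(TPM + 1) the median over all genes was itself 0.12 in GSlinker, 0.17 in SF1 and 0.12 in d38 against GFP, and 0.18 in SF1 and 0.14 in d38 against WT.

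**Figure D2:**
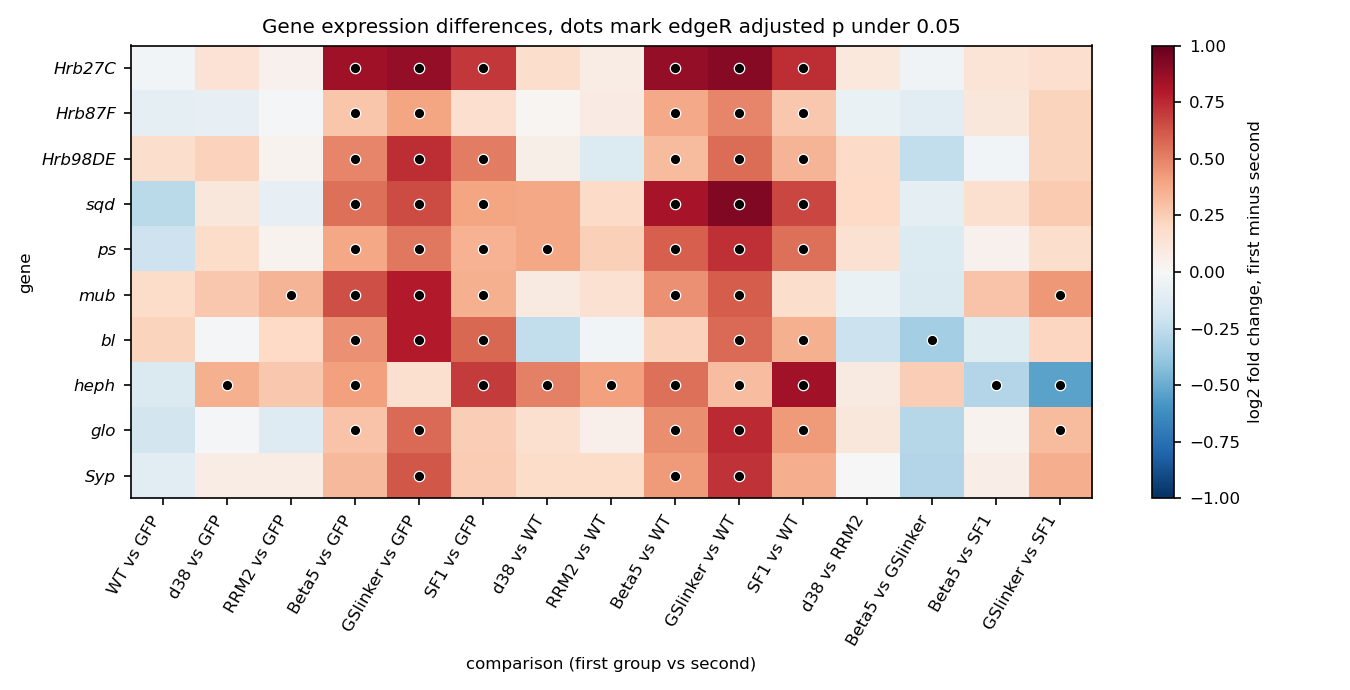
Log2 fold change of each gene (rows) in each of the 15 comparisons (columns), first group minus second, with a dot where edgeR's adjusted p was under 0.05. The dots gather in the columns that set Beta5, GSlinker or SF1 against GFP or WT, and none is in the columns WT against GFP and d38 against RRM2.

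Hrb27C, which represses the translation of oskar mRNA in the oocyte, had the largest log2 fold change of the 10 genes against GFP in each of Beta5, GSlinker and SF1. Its levels were 1329, 1401 and 1356 CPM in GFP, 2812, 2142 and 2395 CPM in Beta5 and 2510, 2816 and 2201 CPM in GSlinker. Every Beta5 and GSlinker library lay above every library of the first set. The log2 fold change against GFP was 0.85 ± 0.17 in Beta5 (adjusted p = 0.000241) and 0.88 ± 0.17 in GSlinker (adjusted p = 0.000124). In SF1 the libraries were at 1461, 2880 and 2343 CPM (0.71 ± 0.17, adjusted p = 0.00108), and replicate 1 lay within the range of the first set.

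SF1 replicate 1 was the lowest of the 3 SF1 libraries in all 10 genes. In sqd, whose protein localises gurken mRNA in the oocyte, SF1 was at 1515, 3021 and 2366 CPM, against 2938, 2259 and 2515 in Beta5 and 1649, 1810 and 1793 in GFP. In Syp, which controls temporal identity in neural stem cells, SF1 was at 208, 388 and 288 CPM against 225, 263 and 252 in GFP. Without SF1 replicate 1, edgeR called 10 of the 10 genes higher against GFP and 10 against WT. Without SF1 replicate 2 it called 4 against GFP, and 5 of 10 against WT without SF1 replicate 3. The share of all genes called in these fits is not given, so the counts show only how the calls depend on single libraries.

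Within the second set the differences were smaller. GSlinker had more bl than Beta5: Beta5 was at 243, 192 and 221 CPM and GSlinker at 286, 277 and 264 CPM. The ranges did not overlap, and bl was the 1 gene called, lower in Beta5 by 0.34 ± 0.10 on the log2 scale (adjusted p = 0.0213), where 8.71% of all genes were called lower. Leaving out Beta5 replicate 2 or 3 or GSlinker replicate 1 or 2 ended that call, while 3 genes were called without Beta5 replicate 1.

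SF1 had the most heph of the 7 groups, at 41.5, 58.7 and 45.8 CPM. GSlinker was at 36.4, 32.3 and 31.8 CPM and Beta5 at 39.6, 39.5 and 40.1 CPM, both below all of SF1. GSlinker minus SF1 was -0.54 ± 0.10 in heph (adjusted p = 0.000607), where 14.2% of all genes were called lower, and no left-out replicate ended it. Beta5 minus SF1 was -0.29 ± 0.10 (adjusted p = 0.0439), the 1 call of the 10 where 11.6% of all genes were called lower. It was lost without any 1 of the 3 Beta5 libraries, without SF1 replicate 2 (adjusted p up to 0.301), with DESeq2's size factors, with no filter on low counts and in the fit of the 2 groups alone.

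GSlinker was higher than SF1 in 2 genes, where 13.6% of all genes were called higher. They were mub (0.43 ± 0.10, adjusted p = 0.00456) and glo (0.32 ± 0.11, adjusted p = 0.0360), whose protein represses nanos translation in the embryo. In mub, GSlinker was at 134, 143 and 121 CPM and SF1 at 77.1, 113 and 105 CPM. In glo the groups overlapped, at 372, 392 and 342 CPM in GSlinker and 235, 293 and 361 CPM in SF1. The call of glo was lost without GSlinker replicate 1 or 2, without SF1 replicate 1 or 2 (adjusted p up to 0.194), on log2 TPM and in the fit of the 2 groups, which also lost mub (adjusted p = 0.0936). Without SF1 replicate 2 or 3 the count over both directions rose from 3 to 6.

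Transcript choice within the genes was then compared. A transcript's share is its TPM as a percentage of that of all tested transcripts of the gene, and 73 of the 104 matched transcripts of the 10 genes were tested. A gene was called when limma on the log2 odds of the shares gave a Simes p that passed 0.05 after adjustment over 4464 genes. Between WT and GFP, 6 of 10 genes were called (Hrb87F, Hrb98DE, sqd, mub, bl and heph), against 17.4% of all genes. Leaving out 1 replicate left 3 to 4 called, with 3 without GFP replicate 1, WT replicate 1 or WT replicate 3, and the fit of GFP and WT alone left 1.

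In sqd, whose transcripts end in different ways, WT differed from GFP, d38 and RRM2 in the shares of its coding classes. The gene is transcribed from the minus strand. In sqd-RA, an exon that sqd-RC and sqd-RE splice at its 3′ side is instead read through to a 3′ end at 13637718. It encodes 321 codons and a 3′ untranslated region of 4471 nt. In sqd-RE that exon is joined to exons further downstream, and the transcript ends at 13634862 with 308 codons and 1532 nt of 3′ untranslated region. Transcripts sqd-RC and sqd-RE share the same coding sequence and were summed as a coding class.

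The class of sqd-RC and sqd-RE held 32.4%, 30.9% and 31.1% of sqd TPM in GFP and 42.2%, 44.7% and 46.4% in WT. In d38 it held 35.6%, 34.8% and 35.8%, and in RRM2 36.0%, 35.5% and 34.3%. WT lay above all libraries of the other 3 groups, and d38 and RRM2 lay between GFP and WT without overlapping either. WT was higher than GFP by 0.78 ± 0.08 in log2 odds (limma adjusted p = 8.05e-06). Both d38 (-0.54 ± 0.08, adjusted p = 0.000665) and RRM2 (-0.54 ± 0.08, adjusted p = 0.00204) were lower than WT. Against GFP, d38 differed by 0.25 ± 0.08 (adjusted p = 0.0702) and RRM2 by 0.24 ± 0.08 (adjusted p = 0.0793), which did not pass, although both passed with a pseudocount of 0.05 or with counts per annotated length (adjusted p down to 0.0359 and 0.0410).

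A test with transcripts summed by 3′ end alone, adjusted over 2165 genes, called sqd in WT against GFP (adjusted p = 0.000443), as 1 of 2 of the 10 genes where 11.4% of all genes were called. In sqd each 3′ end belongs to 1 transcript, so nothing was summed. For this gene the test repeats that of single transcripts with another adjustment. It is not separate support, and it cannot tell 3′ end from splicing. It called sqd alone of the 10 in d38 against WT (adjusted p = 0.0213), where 4.39% of all genes were called. In RRM2 against WT that test did not call sqd (adjusted p = 0.0699), where 0.831% of all genes were called.

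The second set was divided as well. The class held 30.5%, 30.2% and 31.6% in Beta5 and 30.3%, 32.4% and 33.7% in GSlinker, but 43.2%, 43.3% and 45.9% in SF1. All 3 SF1 libraries, replicate 1 included, lay above all of Beta5 and GSlinker. Beta5 minus SF1 was -0.81 ± 0.08 in log2 odds (adjusted p = 2.18e-05) and GSlinker minus SF1 was -0.72 ± 0.08 (adjusted p = 7.83e-05). Across the sets, SF1 minus WT was -0.02 ± 0.08 (adjusted p = 0.943), SF1 minus GFP 0.77 ± 0.08 (adjusted p = 6.14e-06) and Beta5 minus GFP -0.05 ± 0.08 (adjusted p = 0.754). The difference of WT from GFP, d38 and RRM2, and of SF1 from Beta5, GSlinker and GFP, was called in each fit with 1 replicate left out. Within the second set those fits gave adjusted p-values of 9.44e-05 to 0.000281 for Beta5 and 0.000190 to 0.000672 for GSlinker.

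The share of sqd-RA moved the other way. It was lowest in SF1, at 52.2% ± 2.09, and WT, at 52.8% ± 2.31 (SD, n = 3). RRM2 stood at 61.6% ± 0.791 and d38 at 61.8% ± 0.456, and the others at 64.8% ± 1.80 for GSlinker, 65.6% ± 1.21 for GFP and 65.8% ± 1.23 for Beta5. At the gene level sqd was the 1 gene of 10 called in RRM2 against WT (2.06% of all genes), a call lost without RRM2 replicate 1, 2 or 3 or WT replicate 2 or 3. It was also the 1 gene called in Beta5 against SF1 (4.93% of all genes) and stood beside glo as 2 of 10 in GSlinker against SF1 (9.83% of all genes). In fits of the 2 groups alone, none of the 10 genes was called over transcripts in these comparisons.

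**Figure D3:**
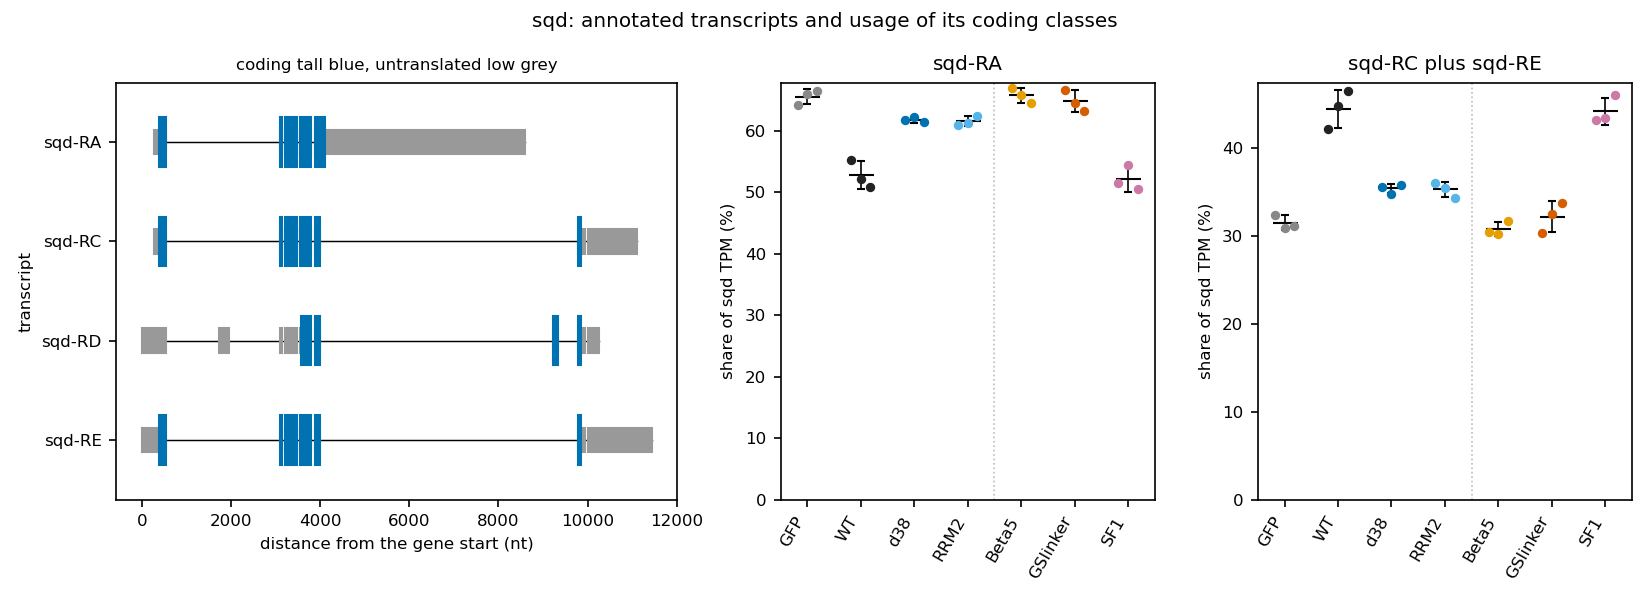
Left, the annotated sqd transcripts by distance from the gene start in nt, with coding parts tall and blue and untranslated parts low and grey. Middle and right, the shares of sqd-RA and of sqd-RC plus sqd-RE in sqd TPM (percent) by group, with a dot for each library and the mean and SD of 3. WT (52.8%) and SF1 (52.2%) have the lowest shares of sqd-RA.

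In bl, a transcript with 1 further exon had a lower share in WT and d38 than in GFP. Transcript bl-RC contains an exon of 51 nt (chromosome 2R, 20589617 to 20589667, plus strand, BDGP6) that bl-RA skips, and it has 502 codons against 496. Its share was 8.26%, 11.6% and 7.64% in GFP, 4.96%, 3.57% and 3.38% in WT, 5.07%, 5.03% and 2.82% in d38 and 7.32%, 8.38% and 7.23% in RRM2. The WT and d38 libraries lay below all of GFP and RRM2. Relative to GFP, WT was at -1.10 ± 0.20 in log2 odds (limma adjusted p = 0.00195) and d38 at -1.02 ± 0.20 (adjusted p = 0.00547). RRM2 was at -0.24 ± 0.20 (adjusted p = 0.574). At the gene level bl was not called in RRM2 against WT or d38 against RRM2, over transcripts or coding classes. The gap of RRM2 from WT and d38 is therefore one of ranges only.

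The second set divided too, with bl-RC at 7.45%, 8.62% and 8.58% in Beta5, 4.54%, 5.75% and 3.96% in GSlinker and 4.67%, 4.66% and 4.57% in SF1. Beta5 lay above GSlinker and SF1 without overlap. Tested among transcripts, bl-RC did not pass, at 0.74 ± 0.20 against GSlinker (adjusted p = 0.0774) and 0.76 ± 0.20 against SF1 (adjusted p = 0.0579). With transcripts of the same coding sequence summed, bl was the 1 gene of 8 called in Beta5 against GSlinker (gene adjusted p = 0.0246), where 5.36% of all genes were called. There the class of bl-RA and bl-RF was lower in Beta5 by 0.69 ± 0.14 in log2 odds (adjusted p = 0.0128), and bl-RC itself had an adjusted p of 0.0567. Against SF1 the coding class test did not call bl (gene adjusted p = 0.0709), although bl-RC had an adjusted p of 0.0351 in it. Beta5 was higher than WT by 0.97 ± 0.20 (adjusted p = 0.00345). Transcript bl-RC had 118 to 613 estimated counts per library. In fits of the 2 groups alone, the calls of WT and d38 against GFP were lost (adjusted p = 0.0583 and 0.0930).

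Hrb98DE, an hnRNP A1-like gene, has alternative first exons. Hrb98DE-RE starts at 28599834 on chromosome 3R (plus strand) and Hrb98DE-RC at 28600407, and they encode 360 and 365 codons. Hrb98DE-RE held 30.6%, 28.8% and 28.7% in GFP, 39.8%, 34.7% and 38.8% in WT, 37.9%, 39.6% and 39.1% in RRM2 and 27.1%, 26.4% and 27.1% in d38. The d38 libraries lay below every other library of the 21. WT (0.53 ± 0.14, adjusted p = 0.0189) and RRM2 (0.60 ± 0.14, adjusted p = 0.0126) were higher than GFP in log2 odds. The d38 group was lower than WT (-0.70 ± 0.14, adjusted p = 0.00631) and than RRM2 (-0.77 ± 0.14, adjusted p = 0.00535). The difference of WT from GFP was lost without GFP replicate 2 or 3 or WT replicate 1 or 3 (adjusted p up to 0.0841), and in fits of 2 groups alone that of WT from GFP and of d38 from WT were lost (adjusted p = 0.0932 and 0.0586). These are shares of 1 transcript: with transcripts of the same first exon summed, Hrb98DE was not called in WT against GFP (adjusted p = 0.0510), RRM2 against GFP (adjusted p = 0.292), d38 against WT (adjusted p = 0.0542) or d38 against RRM2 (adjusted p = 0.394). Hrb98DE was the 1 gene of 10 called between d38 and RRM2, where 4.37% of all genes were called. Leaving out 1 library there gave 0 to 2 genes, with 0 without d38 replicate 2, RRM2 replicate 2 or RRM2 replicate 3 and 2 without d38 replicate 3.

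In Beta5, GSlinker and SF1 the share of Hrb98DE-RE was 37.6% ± 3.37, 43.6% ± 1.84 and 42.1% ± 4.47, and that of Hrb98DE-RC was 28.4% ± 5.59, 21.6% ± 2.60 and 24.9% ± 6.29 (SD, n = 3), against 43.6% ± 1.55 for Hrb98DE-RC in GFP. Within each first exon the next exon can begin at either of 2 acceptor sites 12 nt apart. This pair of sites was examined after the shares had been seen and is given without a test. Values are of the first set. Among transcripts with the first exon of Hrb98DE-RC, the upstream site held 78.1% ± 0.316 in GFP, 75.5% ± 0.645 in d38, 72.9% ± 1.85 in WT and 68.1% ± 3.13 in RRM2. Among those with the first exon of Hrb98DE-RE its part was 37.5% ± 0.832 in d38, 33.5% ± 3.57 in GFP, 28.2% ± 3.26 in WT and 20.5% ± 1.60 in RRM2. RRM2 lay below GFP and d38 at both first exons without overlap. At the first exon of Hrb98DE-RC the transcripts with each site, mainly Hrb98DE-RC and Hrb98DE-RD, also have different 3′ ends. Site and end cannot be told apart there.

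Hrb87F, a nuclear hnRNP that gathers in omega speckles after heat shock, differed between groups in its 3′ end. Hrb87F-RA and Hrb87F-RC encode the same 385 codons and have 3′ untranslated regions of 979 and 508 nt (chromosome 3R, minus strand). Hrb87F-RA held 59.9%, 64.0% and 66.3% in GFP, 95.1%, 88.9% and 93.5% in WT, 84.3%, 78.7% and 84.2% in d38 and 96.0%, 93.7% and 91.4% in RRM2. All LS2 libraries, in both sets, lay above all of GFP. WT was higher than GFP by 2.75 ± 0.62 in log2 odds (adjusted p = 0.00856) and RRM2 by 2.97 ± 0.62 (adjusted p = 0.00725). The value for d38 was 1.40 ± 0.62 (adjusted p = 0.203). The share of Hrb87F-RC fell from 33.8%, 29.9% and 28.1% in GFP to at most 6.27% in WT (-3.96 ± 0.98 in log2 odds, adjusted p = 0.0149). It was listed at or near 0 in WT replicate 1, RRM2 replicate 1 and SF1 replicate 2, an estimate for a transcript whose exons lie within those of Hrb87F-RA.

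Another Hrb87F transcript, with the longest 3′ untranslated region (Hrb87F-RE), was named after its values had been seen. Its share was 6.21%, 6.06% and 5.49% in GFP, 4.80%, 4.73% and 4.29% in WT, 3.38%, 2.64% and 3.08% in d38 and 3.82%, 3.30% and 3.10% in RRM2. The second set ran from 0.910% to 1.69%, below all 12 libraries of the first. Across the sets, Beta5 minus GFP was -1.84 ± 0.12 in log2 odds (limma adjusted p = 7.53e-08). Within the first set, d38 minus GFP was -0.82 ± 0.12 (adjusted p = 0.000461) and RRM2 minus GFP -0.69 ± 0.12 (adjusted p = 0.00168). WT minus GFP was -0.32 ± 0.12 (adjusted p = 0.0975) and d38 minus WT -0.50 ± 0.12 (adjusted p = 0.0209). In d38 against GFP and against WT, Hrb87F-RE was the only Hrb87F transcript that passed.

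Transcripts glo-RA and glo-RB encode the same 586 codons (chromosome 3R, minus strand). On the annotation glo-RB starts 235 nt further downstream and removes an intron of 57 nt that is not among the introns of glo-RA. The pair also ends 87 nt apart, with 3′ untranslated regions of 209 nt in glo-RA and 296 nt in glo-RB. The shares of this pair alone therefore do not tell a difference at the 5′ side from one at the 3′ end. The share of glo-RB was 26.8%, 21.8% and 21.9% in GFP, 17.1%, 22.9% and 20.8% in WT, 11.7%, 16.0% and 12.1% in d38 and 14.4%, 10.5% and 10.03% in RRM2. All d38 and RRM2 libraries lay below all GFP and WT libraries. Relative to GFP, d38 was at -0.97 ± 0.25 in log2 odds (adjusted p = 0.0272), RRM2 at -1.17 ± 0.25 (adjusted p = 0.00907) and WT at -0.26 ± 0.25 (adjusted p = 0.623). Against WT the differences did not pass, at -0.70 ± 0.25 for d38 (adjusted p = 0.142) and -0.91 ± 0.25 for RRM2 (adjusted p = 0.124). The call of d38 was lost without GFP replicate 1 or 3 or d38 replicate 1 or 3 (adjusted p up to 0.120). GSlinker was lowest, at 4.99%, 5.33% and 6.40%. Transcript glo-RC shares its first exon class with glo-RA and its 3′ end class with glo-RB. Summed by first exon, glo was called against GFP in d38 (limma gene adjusted p = 0.022) and in RRM2 (0.00701). Summed by 3′ end, glo was called against GFP in RRM2 (0.0304) but not in d38 (0.192). Each test sets 1 transcript, glo-RB or glo-RA, against the others, so neither is separate support.

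With glo and bl, Hrb87F made 3 of 10 genes called in d38 against GFP (13.6% of all genes), and Hrb87F, Hrb98DE and glo made 3 in RRM2 against GFP (14.6% of all genes). The count for RRM2 was 1 without GFP replicate 1 or RRM2 replicate 3. Hrb27C, Hrb87F, Hrb98DE and sqd made 4 in d38 against WT (8.27% of all genes), with 1 without WT replicate 3 or d38 replicate 2 and 2 without WT replicate 1.

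**Figure D4:**
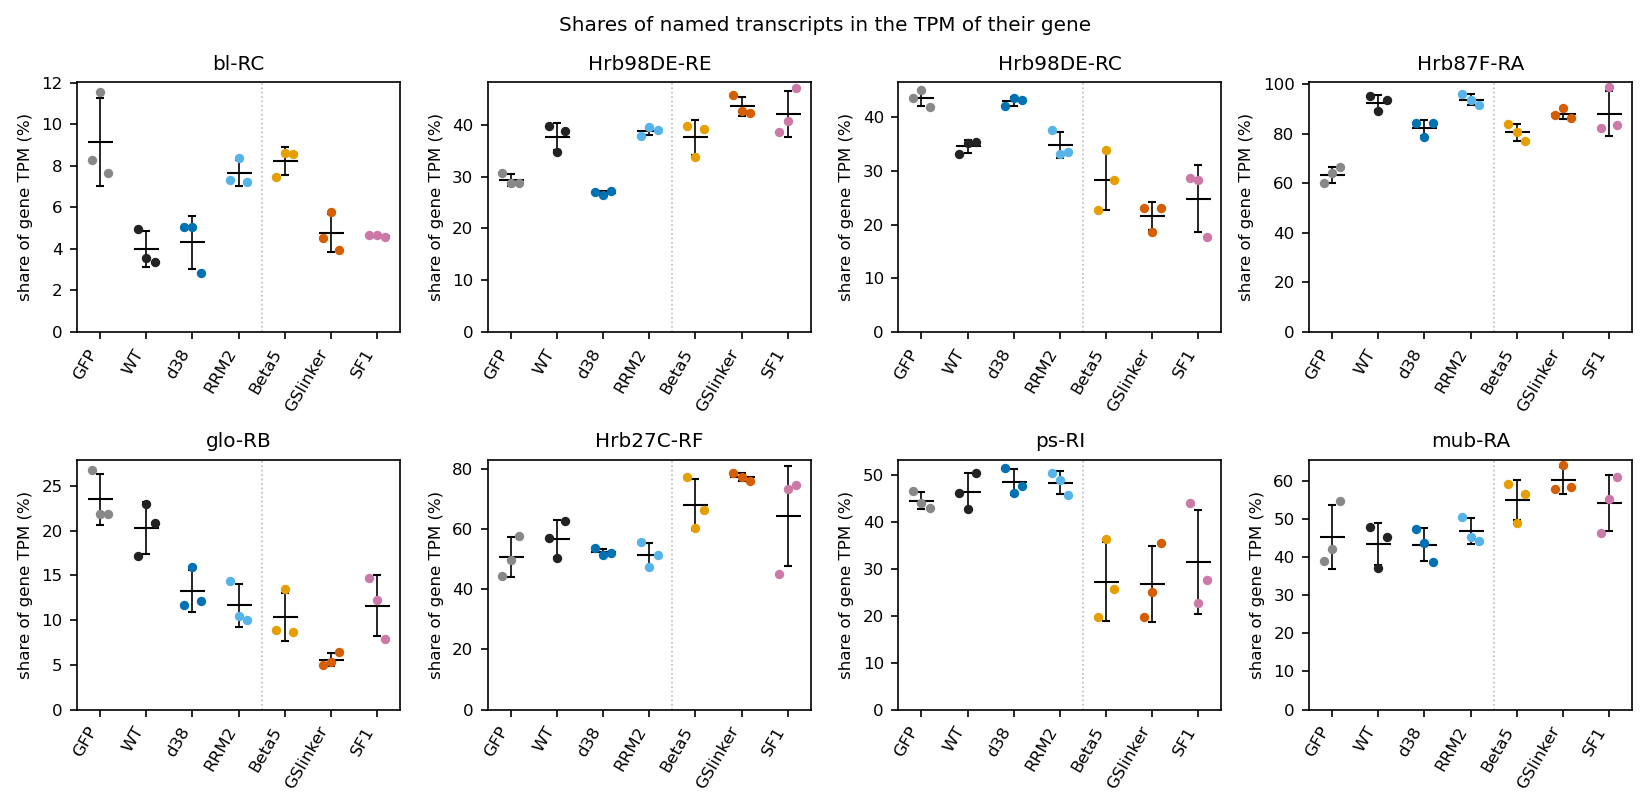
Share of 8 transcripts in the TPM of their gene (percent, y axis) by group (x axis): each dot is a library, with the mean and SD of 3, and the dotted line separates the 2 sets of libraries. The share of bl-RC is low in WT, d38, GSlinker and SF1, and that of Hrb98DE-RE is lowest in d38 (26.9% on average).

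Comparisons across the sets called a larger share of all genes than those within a set. Among the 10 genes the counts overlapped: WT against GFP, within the first set, also called 6 (17.4% of all genes). Against GFP, 6 of 10 were called in Beta5 (34.5% of all genes), 8 in GSlinker (43.9% of all genes) and 6 in SF1 (38.4% of all genes). Against WT the counts were 8 in Beta5 (29.1% of all genes), 7 in GSlinker (35.8% of all genes) and 4 in SF1 (25.2% of all genes). For GSlinker against WT the count was 4 without GSlinker replicate 1 or 2. Between Beta5 and GSlinker none of the 10 was called by the Simes test over transcripts, against 3.2% of all genes, although 8 genes had a transcript at an unadjusted p under 0.05 and edgeR's diffSpliceDGE called 2. The latter made many false calls on simulated data in an earlier analysis of these data, and its share of all genes is not given.

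**Figure D5:**
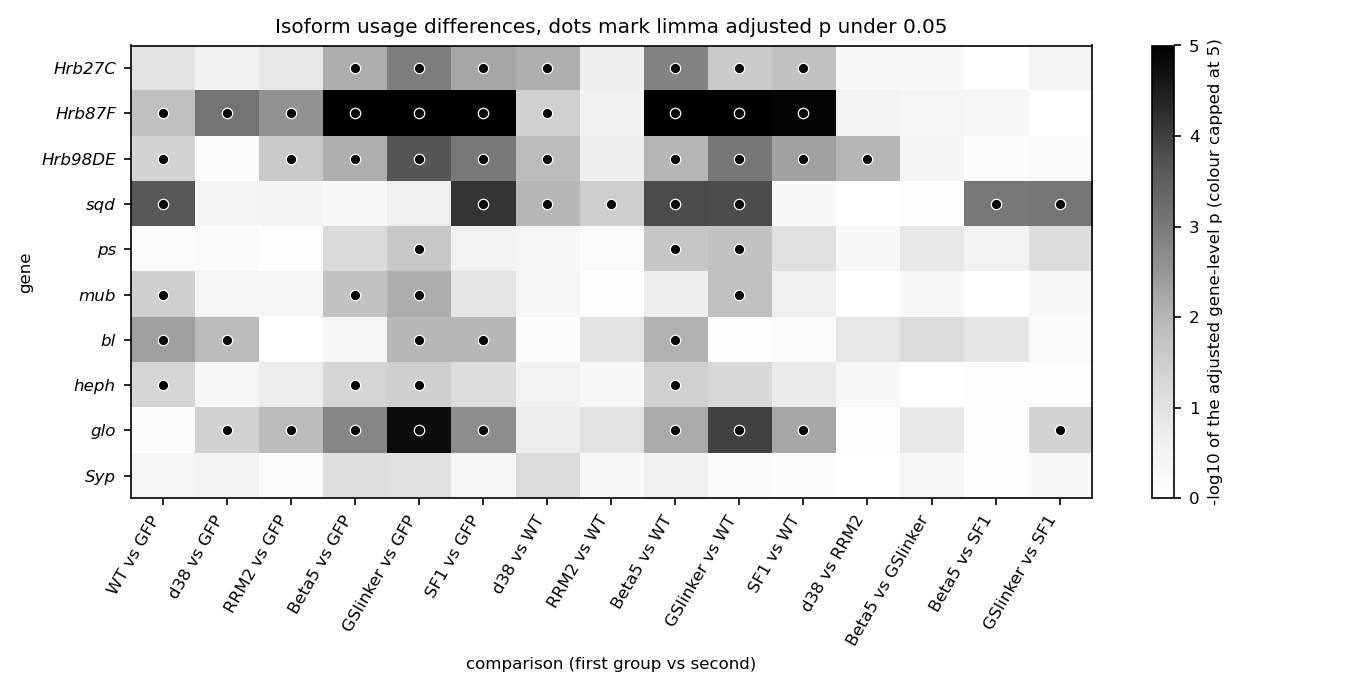
Adjusted gene-level p of isoform usage, as -log10 with the colour capped at 5, for each gene (rows) and comparison (columns), with a dot where limma's adjusted p was under 0.05. In the row of sqd the dots mark pairs of WT or SF1 with another group, and Syp has no dot.

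Several of these differences lay along the sets of libraries. Hrb27C-RF and Hrb27C-RA encode the same 421 codons, with 3′ untranslated regions of 3220 and 1351 nt. They also start 556 nt apart, so this pair alone does not tell a difference at the 3′ end from one at the 5′ side. Within the first set Hrb27C was called in d38 against WT, over transcripts and summed by first exon, but not summed by 3′ end. Hrb27C-RF held 50.8% ± 6.76 in GFP and 77.5% ± 1.43 in GSlinker (1.70 ± 0.39 in log2 odds, limma adjusted p = 0.00404). In SF1 replicate 1 Hrb27C-RF was at 45.2%, against 73.6% and 74.7% in the other SF1 libraries. Similarly, ps-RI held 44.5% ± 1.82 in GFP, 46.6% ± 3.88 in WT, 27.3% ± 8.43 in Beta5 and 26.8% ± 8.03 in GSlinker, but 44.1% in SF1 replicate 1 and 22.7% and 27.7% in the others. In both transcripts SF1 replicate 1 lay with the first set although its effective lengths were of the second kind.

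Transcript mub-RA, with 386 codons, held 45.3% ± 8.35 in GFP and 60.2% ± 3.47 in GSlinker (0.85 ± 0.27 in log2 odds, adjusted p = 0.0231). The longer mub-RE, with 557 codons, held 27.8%, 14.1% and 4.63% in GFP and at most 0.158% in WT (-3.93 ± 0.93, adjusted p = 0.0117), and the GFP libraries were far apart. In heph, heph-RE held 22.7% ± 7.35 in GFP, 18.7% ± 4.11 in WT and 33.1% ± 2.61 in Beta5, and Beta5 was higher than WT (1.08 ± 0.25, adjusted p = 0.00635). Over transcripts, Syp was called at the gene level in none of the 15 comparisons by the limma test. With transcripts summed by coding sequence it was called in d38 against WT (adjusted p = 0.0447), as 1 of 3 of 8 genes where 12.2% of all genes were called. Summed by first exon it was called there too (adjusted p = 0.0411), as 1 of 2 of 8 genes where 4.78% of all genes were called. Its transcript Syp-RF, with 529 codons against 711 in Syp-RB, held 46.7% ± 4.10 in GFP and 56.6% ± 0.487 in GSlinker (0.56 ± 0.18, adjusted p = 0.0292).

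Of 35 other RNA-binding splicing regulators, 34 were tested. In WT against GFP, 9 were called higher and 2 lower, where 17.1% of all genes were called higher and 17.1% lower. In d38 the counts against GFP were 10 and 2 (15.1% and 15.2% of all genes), and in RRM2 they were 9 and 4 (12.3% and 12.7%). Across the sets of libraries they were 20 and 3 in Beta5 (28% and 29.3% of all genes), 23 and 4 in GSlinker (31.1% and 32.5%) and 21 and 3 in SF1 (28.4% and 30.1%). Their median log2 fold change was 0.06 in WT and 0.49 in GSlinker against GFP, beside -0.10 and 0.64 for the 10 genes. The largest called differences in WT were in bru1, at 0.394 ± 0.0419 CPM against 0.0967 ± 0.0316 in GFP, in sm, at 6.29 ± 1.21 against 2.90 ± 0.515, and in elav, at 24.0 ± 3.52 against 12.3 ± 0.410 (SD, n = 3). All 3 were low in these libraries, and sm (smooth) is an hnRNP L relative. In GFP, bru1 lay below the minimum of the filter on low counts. It was tested only because LS2 libraries passed, so its rank here and in d38 and RRM2 carries no weight. In d38 and RRM2 the 3 largest were in bru1, bru2 and sm, all higher than in GFP.

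The gene whose group means over the 7 groups were most like those of a listed gene was sought among 6185 genes, by the root mean square difference of centred log2 CPM. For Hrb98DE it was nonA, another RNA-binding splicing regulator, at 0.0451, and for Hrb87F it was trc, at 0.0223. For sqd it was CG42724 at 0.0453, and for Hrb27C it was glu at 0.0466. The nearest genes of the others were CG43689 for ps (0.0451), jim for mub (0.0559) and CG9586 for bl (0.0451). Those of glo and Syp were Rab10 (0.0346) and CG1910 (0.0481). Of all these nearest genes, nonA alone is among the 35 other regulators. The group means span both sets of libraries, and the part of that difference in the likeness was not tested. The least matched was heph, whose nearest gene, Wdr62, differed by 0.103. Within the 10, glo and Syp were most alike (0.0670), while the 9 pairs with heph differed by 0.211 to 0.318.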

How the data were processed

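The deposited files list 30594 transcripts per library. Per the file headers, every row gives estimated counts beside TPM, annotated length and effective length. The authors' estimated (expected) counts carry fractions and no scaling between libraries. The deposited TPM values correct those counts for effective length and fix the library total. Per the submitters' processing notes, STAR, kallisto, dm6 and BDGP6 were named, without versions or roles. Whether the library kit kept strand is not given in the sources used here, so reads of overlapping genes may be mixed.

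Transcripts were matched to the BDGP6 annotation of Ensembl release 115 (30242 of 30594, 98.8%), and bl through a RefSeq synonym. Counts were summed per gene, rounded to whole numbers and tested by the quasi-likelihood method of edgeR 4.0.16 under R 4.3.3, with all 21 libraries in 1 fit and 14 residual degrees of freedom. TMM factors ran from 0.958 to 1.05, and filterByExpr used its minimum of 10 counts. The SE of a log2 fold change is its size divided by the square root of F. Shares were tested with limma 3.58.1 on log2((share + 0.01) / (1 − share + 0.01)), in log2 odds, for 14526 transcripts in 4464 genes. Adjustment was Benjamini-Hochberg's, over every feature tested in a comparison, and calls were made at 0.05. The 15 comparisons set the LS2 groups against GFP and against WT, d38 against RRM2, and Beta5, GSlinker and SF1 against each other. DESeq2 1.42.0, limma on log2 TPM with pseudocounts of 1 and 0.1, other filters, other sets of libraries and left-out replicates were alternatives. The fits were checked on simulated counts.

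The transcripts named are, per gene, the 2 with the widest range of mean share over the groups, with 1 coding class, first exon class and 3′ end class each, and of the 35 other regulators the 3 called genes with the largest change in WT, d38 and RRM2 against GFP. All 10 genes are described. The genes and lists were chosen with earlier results of these data known. Replicate numbers are not said in the labels to mark a shared batch. In GSlinker against WT the deviations of same-numbered libraries correlated at 0.109 to 0.200, over 0.1 in every pair, and in the other 14 comparisons at least 1 pair was below that.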

Additional observations from a re-analysis of the deposited data

How the results depend on the processing

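Each result was recomputed under the alternatives, 1 at a time, and no value that had passed its test changed sign. Counts below are of the 10 genes called, in the order all 21 libraries first. Shares of all genes called are not given for most of these fits, nor for the left-out replicates above. In WT against GFP that share was 34.2% for expression in the fit of all 21 libraries and 45.3% in that of GFP, WT, d38 and RRM2. The counts therefore show how calls depend on the fit, not how the 10 genes differ from all genes. In fits of only the 2 groups compared, expression calls went from 0 to 3 in WT against GFP, 1 to 5 in d38 against GFP, 1 to 4 in RRM2 against GFP, 2 to 5 in d38 against WT, 8 to 5 in SF1 against WT, 0 to 4 in d38 against RRM2, 1 to 2 in Beta5 against GSlinker, 1 to 0 in Beta5 against SF1 and 3 to 1 in GSlinker against SF1. In the same fits isoform usage calls went to 1 from 6 in WT, 3 in d38 and 3 in RRM2 against GFP and from 4 in SF1 against WT, to 2 from 6 in SF1 against GFP and from 4 in d38 against WT, to 5 from 8 in Beta5 against WT, and to 0 in RRM2 against WT and in Beta5 and GSlinker against SF1. Fewer libraries leave fewer degrees of freedom there. The fit of GFP, WT, d38 and RRM2 gave expression counts of 5 in WT, 3 in d38 and 4 in RRM2 against GFP, 5 in d38 and 2 in RRM2 against WT and 2 in d38 against RRM2, and an isoform count of 0 in RRM2 against WT.

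For d38 against GFP, expression counts were 2 with DESeq2's test, with no filter and with counts scaled by effective length, and 3 on log2 TPM with either pseudocount, which gave 4 in d38 against WT. No filter gave 2 in RRM2 against GFP. DESeq2's size factors gave 0 and its test 2 in Beta5 against SF1. For isoform usage, diffSpliceDGE gave 2 in RRM2 against WT, d38 against RRM2, Beta5 against GSlinker and Beta5 against SF1, and 5 in GSlinker against SF1. Its many false calls on simulated data, given above, limit these counts. A pseudocount of 0.05 gave 1 in Beta5 against GSlinker and 1 in GSlinker against SF1, and a count minimum of 50 gave 1 in Beta5 against GSlinker. The replicate number as a block gave 2 in RRM2 against GFP for expression, 0 in RRM2 against WT and 1 in GSlinker against SF1 for isoform usage, and moved no other count of calls by over 1.5 times. Outside GSlinker against WT, where it changed no count, libraries share only a number. Over all comparisons same-numbered deviations correlated at -0.607 to 0.324. The cause was not tested for any of these shifts.

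With 1 library left out, expression counts were 0 to 1 in d38 and RRM2 against GFP, 4 to 10 in SF1 against GFP, 1 to 2 in d38, 0 to 1 in RRM2 and 5 to 10 in SF1 against WT, 0 to 3 in Beta5 against GSlinker, 0 to 2 in Beta5 against SF1 and 2 to 6 in GSlinker against SF1. Isoform counts were 3 to 4 in WT and 1 to 3 in RRM2 against GFP, 1 to 4 in d38, 0 to 1 in RRM2 and 4 to 7 in GSlinker against WT, 0 to 2 in d38 against RRM2, 0 to 1 in Beta5 against GSlinker and 1 to 2 in GSlinker against SF1. Depth limits heph-RE (117 to 484 estimated counts per library), bl-RC and mub-RE (0 to 459) most.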
